A study of Homo sapiens with 6 samples.

Results

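The genes described here encode the core proteins that cut introns out of messenger RNA and the proteins that steer this choice: the heterogeneous nuclear ribonucleoproteins (HNRNP), the SR proteins (SRSF), the U2 snRNP subunits (SF3A and SF3B), the Sm and other snRNP proteins (SNRP), the U2 auxiliary factor (U2AF) and the pre-mRNA processing factors (PRPF). Members were all rows of the deposited table whose symbol starts with HNRNP, SF3A, SF3B, SNRP or U2AF, or with SRSF or PRPF followed by a digit. The rule used no measured value and gave 73 of 18806 gene symbols: 24 HNRNP, 12 SNRP, 12 SRSF, 12 PRPF, 6 SF3B, 4 U2AF and 3 SF3A. Levels came from mRNA sequencing of human Mono-Mac-6 cells, an established line from acute myeloid leukaemia with MLL-AF9 as its fusion oncogene. Just 1 clone of it expressing Cas9, which alone stands for the line, received by lentivirus either the control guide RNA sgNS or a guide against METTL1, sgMETTL1.3 or sgMETTL1.6. Each group had 2 libraries, and every group shared the clone, the Cas9, the lentiviral delivery, the selection (hygromycin B at 200 µg/ml and blasticidin at 10 µg/ml) and the harvest about 8 to 10 days after transduction. The column name of every library also carries the letters EV, which the labels do not explain. METTL1 places N7-methylguanosine on tRNAs, and the comparison asks which transcripts differ when it is targeted.

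As background, splicing is carried out by the spliceosome, which assembles anew on each intron from small nuclear RNAs and their proteins. U2AF reads the 3′ splice site and recruits the U2 snRNP, whose SF3A and SF3B parts hold the branch point. Many PRPF proteins belong to the U4/U6.U5 tri-snRNP and the complexes that activate it. SR proteins mostly favour the use of exons and hnRNP proteins often oppose it, and many genes of both groups limit their own output through alternatively spliced exons that mark their mRNA for decay. The U2 snRNP, U2AF and SR genes SF3B1, U2AF1 and SRSF2 are known sites of mutation in myeloid disease. Gene-level values read how much mRNA a gene gives, not which exons it holds, so neither splicing nor those decay-marked forms were measured here.

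The values are TPM, an estimate of each gene's share of all transcripts corrected for transcript length and scaled to the same total in every library, so levels can be compared between genes. Since TPM carries no read number, depth is unknown here and counting error cannot be stated. The targeted gene METTL1 stood at 15.4 and 13.9 TPM in the sgNS libraries, 18.3 and 16.6 TPM with sgMETTL1.3 and 11.2 and 11.7 TPM with sgMETTL1.6. Both libraries labelled sgMETTL1.3 held more METTL1 mRNA than the controls (log2 0.24, limma adjusted p = 0.011) and both labelled sgMETTL1.6 held less (log2 -0.33, limma adjusted p = 0.0017). The label sgMETTL1.3 is thus not borne out by a lower METTL1 mRNA, gene-level TPM does not read a small insertion or deletion, and every direction below follows the labels. WDR4, the partner subunit, was higher in every guide library (21.4 and 26.1 TPM in the sgNS libraries, 35.5 and 35.6 TPM with sgMETTL1.3 and 30.6 and 34.4 TPM with sgMETTL1.6, log2 0.50, limma adjusted p = 3.4e-05). Replicates differed by a median of 2.42% to 3.15% over 1742 genes that reached a mean of 100 TPM. Whether replicates were separate cultures is not in the labels, so p-values measure only how far these libraries spread, and that spread may be technical. Of 12 markers of a monocytic leukaemia line 9 stood at 1 TPM or more in every library, while CD14 and CSF1R stayed under 1 TPM and FCN1 at or near 0. Of 10 markers of other cells only PECAM1 reached 1 TPM in every library, and CD3E, CD2 and HBB were among those listed at 0 in all 6. In bulk RNA, more cells holding a transcript and more transcript per cell cannot be told apart.

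Splicing factor and hnRNP transcripts were mostly higher in the METTL1 guide libraries, by small steps. The 73 members summed to 1.61% and 1.62% of all TPM under sgNS, to 1.82% and 1.79% under sgMETTL1.3 and to 1.83% and 1.82% under sgMETTL1.6. All 4 guide libraries therefore lay above both controls, at 111% to 114% of the sgNS mean. With both guides set against sgNS, 41 of the 67 tested members were higher and 8 lower (limma on log2(TPM + 1), Benjamini-Hochberg adjusted p under 0.05), and 18 were not called. Over all 10911 genes tested, 59.4% were called, 32.6% higher and 26.8% lower, so the members' share of 61.2% higher stands beside 32.6% and their 11.9% lower beside 26.8%. The 8 lower became 5 without sgNS replicate 1 and 5 without sgNS replicate 2, and 2 of them, HNRNPR and SF3A2, were called in each of the 15 alternatives. Markers of the cell line moved alongside: of 9 tested monocytic markers 6 were lower over both guides, among them CD86 (log2 -1.01), FCGR1A (-0.84), ITGAM (-0.64), MPO (-0.47) and CD68 (-0.37), and S100A9 (0.48) and SPI1 (0.20) were higher. Their part in the members' changes was not tested. In 43 members all 4 guide libraries lay above both controls and in 6 below, where 32.9% and 27.3% of all genes did. The members' median log2 change was 0.14 and that of all genes 0.02. The members are abundant genes, and abundant genes were called more often: of the 3474 genes whose mean reached 50 TPM 43.9% were higher and 27.5% lower, and of the 60 members at that level 66.7% were higher and 10% lower. By size, 1 member, U2AF1, changed by a log2 step of 0.5 or more, a size that 8.37% of all genes tested reached with a call, and summed with its near-identical copy it stood at log2 0.48.

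**Figure D1:**
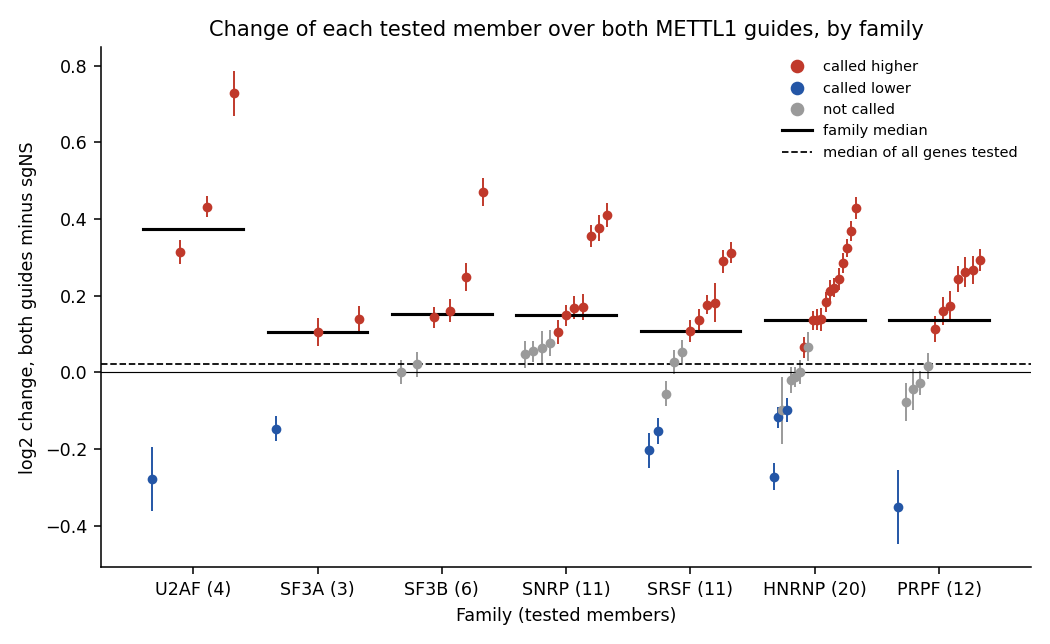
Log2 change of each tested member over both METTL1 guides (vertical axis, both guides minus sgNS on the log2(TPM + 1) scale) by family, with the number tested; points are members, bars are SE, colour gives the call, the black line is the family median and the dashed line the median of all genes tested (0.02). The U2AF median (0.37), which counts U2AF1 and its near-identical copy separately, lies above those of the other families (0.11 to 0.15). Each family but SF3B and SNRP holds a member called lower.

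By family, the counts ran as follows. U2AF had 3 of 4 higher and 1 lower with a median log2 change of 0.37, SF3B 4 of 6 higher and none lower (0.15), SNRP 7 of 11 higher and none lower (0.15), PRPF 7 of 12 higher and 1 lower (0.14), HNRNP 12 of 20 higher and 3 lower (0.14), SRSF 6 of 11 higher and 2 lower (0.11), and SF3A 2 of 3 higher and 1 lower (0.11). These are counts and medians set side by side, with no test between families. The U2AF count and median, here and below, take U2AF1 and its near-identical copy U2AF1L5 as 2 members. With that pair summed (log2 0.48), the middle change of the family was that of U2AF2 (log2 0.31). Under the scalings, filters, fits and left-out libraries that were tried, every family median stayed above 0, U2AF from 0.34 to 0.39 and the other families from 0.07 to 0.16. Against sgNS, sgMETTL1.3 alone gave 40 members higher and 6 lower, where 34.3% of all genes were higher and 24.2% lower (58.5% called). Rescaling without ribosomal protein genes moved this split to 32 higher and 11 lower, and median-ratio scaling to 33 and 9. The split of all genes moved too, from 3743 higher and 2642 lower to 3086 and 3122 and to 3181 and 3103. With sgMETTL1.6 alone 39 were higher and 6 lower, where 25.7% and 25.3% of all genes were (51% called), and without sgNS replicate 2 the 6 lower became 3. The call was higher with each guide for 35 members and lower with each for 3, where 22.1% and 18.6% of all genes were. No member was called in opposite directions by the guides, as 0.596% of all genes were. The guides share their control libraries, so these calls are not independent of each other.

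HNRNPA2B1 led the hnRNP genes at 983 and 994 TPM in the sgNS libraries, followed by HNRNPK at 805 in each and HNRNPH1 at 735 and 733. With sgMETTL1.6 the ranges of HNRNPK (893 and 870.0 TPM) and HNRNPH1 (881 and 869 TPM) overlapped. SNRPB (562 and 566 TPM) and SNRPD2 (487 and 464 TPM) led the snRNP proteins, and SRSF2 (535 and 528 TPM) the SR proteins. In SF3B the small subunit SF3B6 (423 and 402 TPM) lay just above SF3B1 (391 and 395 TPM) under sgNS, and their ranges overlapped with sgMETTL1.3. PRPF19 (237 and 243 TPM) stood above PRPF8 (217 and 225 TPM) in the sgNS libraries, and below it in all 4 guide libraries (242, 249, 219.9 and 231 TPM against 285, 281, 259 and 259 TPM).

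Of the 73 members 6 had a mean under 1 TPM and were not tested. HNRNPCL1, HNRNPCL2, HNRNPCL3 and HNRNPCL4, relatives of HNRNPC, were listed at 0 to 0.19 TPM. SNRPN, a relative of SNRPB, was listed at 0 in all 6 libraries. SRSF12 stood at 0.44 to 0.59 TPM. Some members share sequence with other genes, so that the estimate of their level depends on how reads were shared out. In GENCODE 29, U2AF1 and U2AF1L5 shared 94.3% of their 50-base stretches with each other, and HNRNPA1L2 had 58.5% of its own in other genes, HNRNPA1 first with 47.6%. HNRNPA1 and PRPF31 are not analysed here. The value of HNRNPA1L2 (304 and 302 TPM in the sgNS libraries, 309 and 291 TPM with sgMETTL1.3 and 309.9 and 305 TPM with sgMETTL1.6), with overlapping groups and no call, is therefore uncertain. SRSF1 shared 50.8% of its stretches with another annotated gene and HNRNPUL2 43.2% with a readthrough transcript, while 54 of the 73 members shared under 10%. Whether the authors' counting used strand is not given in the sources used here, and 9 members had over 10% of their exon bases under exons of the opposite strand: PRPF40B (48.7%), SRSF9 (46.2%, under GATC), SRSF2 (36.7%, under MFSD11), HNRNPU (15.6%), PRPF39 (13.2%), SRSF1 (13.2%), SF3A2 (12.7%), SNRPD3 (12.6%) and U2AF1L4 (11.5%). This share of exon bases does not measure an error in TPM, and how far the values of these members are affected was not tested.

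U2AF, the dimer that recognises the 3′ splice site, had the highest family median, with U2AF1 and its near-identical copy counted as separate members. U2AF2 (plus strand of chromosome 19, 55654146 to 55674715 in GRCh38), the large subunit that binds the polypyrimidine tract, stood at 187 and 194 TPM in the sgNS libraries, 236 and 247 TPM with sgMETTL1.3 and 230.4 and 235 TPM with sgMETTL1.6. All 4 guide libraries lay above both controls, log2 0.31 ± 0.032 (SE, limma adjusted p = 2.4e-06). U2AF1, the small subunit that reads the AG at the intron's end, was listed at 57.4 and 69.6 TPM in the sgNS libraries, 98.1 and 100.4 TPM with sgMETTL1.3 and 109 and 115 TPM with sgMETTL1.6, log2 0.73 ± 0.058 (SE, limma adjusted p = 3.1e-07). Its near-identical copy U2AF1L5 was listed at 359 and 359 TPM in the sgNS libraries, 495 and 472 TPM with sgMETTL1.3 and 489 and 483 TPM with sgMETTL1.6, log2 0.43 ± 0.028 (SE, limma adjusted p = 3.4e-08). Both rose, and both lie on chromosome 21, at 43092956 to 43107587 and at 6484623 to 6499261, and the split of reads between them is uncertain. Their sum was 417 and 429 TPM with sgNS, 593 and 573 TPM with sgMETTL1.3 and 598 and 597 TPM with sgMETTL1.6, and a fit with both as 1 row, added after seeing the data, gave log2 0.48 ± 0.027 (SE, limma adjusted p = 6.5e-09). U2AF1 held 13.8% to 19.2% of that sum. U2AF1L4, a paralogue of the small subunit with low expression, went the other way (7.29 and 9.28 TPM in the sgNS libraries, 7.16 and 6.76 TPM with sgMETTL1.3 and 6.55 and 6.03 TPM with sgMETTL1.6), log2 -0.28 ± 0.084 (SE, limma adjusted p = 0.012). That call was lost without sgNS replicate 2 (log2 -0.12, adjusted p = 0.28) and when low genes were not filtered out (adjusted p = 0.081).

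The SF3B part of the U2 snRNP, which cradles the branch point, had no member called lower. SF3B3 (plus strand of chromosome 16, 70523788 to 70577670), a large scaffold of the complex, had the highest change of the SF3 genes, at 62.1 and 63.7 TPM in the sgNS libraries, 94.1 and 89.2 TPM with sgMETTL1.3 and 83.9 and 83.2 TPM with sgMETTL1.6, log2 0.47 ± 0.037 (SE, limma adjusted p = 2.2e-07). SF3B5, a small subunit, stood at 279 and 300.3 TPM in the sgNS libraries, 331 and 355 TPM with sgMETTL1.3 and 339.9 and 351 TPM with sgMETTL1.6, log2 0.25 ± 0.037 (SE, limma adjusted p = 6.9e-05). SF3B2, which contacts the pre-mRNA beside the branch point, stood at 266 and 269 TPM in the sgNS libraries, 304 and 299 TPM with sgMETTL1.3 and 285 and 294 TPM with sgMETTL1.6, log2 0.14 ± 0.028 (SE, limma adjusted p = 6.6e-04). In SF3B3, SF3B5 and SF3B2 every guide library exceeded both controls, although the SF3B5 controls lay well apart from each other. SF3B4 is described with the guides' difference. SF3B1, the subunit that holds the branch point helix, stood at 391 and 395 TPM in the sgNS libraries, 420.2 and 399 TPM with sgMETTL1.3 and 401 and 377 TPM with sgMETTL1.6, and SF3B6, which touches the branch point adenosine, at 423 and 402 TPM in the sgNS libraries, 403 and 395 TPM with sgMETTL1.3 and 440.0 and 413 TPM with sgMETTL1.6. Guide and control libraries overlapped in both and neither was called (adjusted p = 0.59 and 0.98).

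SF3A, which joins SF3B to the U2 snRNP, had 3 members and a call for each. SF3A3 stood at 116 and 118 TPM in the sgNS libraries, 135 and 126 TPM with sgMETTL1.3 and 126 and 128 TPM with sgMETTL1.6, log2 0.14 ± 0.035 (SE, limma adjusted p = 0.0038), and lost its call without sgNS replicate 1 (adjusted p = 0.052). SF3A1 stood at 71.9 and 75.4 TPM in the sgNS libraries, 83.5 and 84.6 TPM with sgMETTL1.3 and 74.2 and 75.9 TPM with sgMETTL1.6, log2 0.11 ± 0.036 (SE, limma adjusted p = 0.022), with the sgMETTL1.6 libraries overlapping the controls, and it lost the call without sgNS replicate 1 (log2 0.07, adjusted p = 0.24), without sgMETTL1.3 replicate 2 (adjusted p = 0.056) and with quantile scaling, without ribosomal protein genes or without the variance trend (adjusted p = 0.058, 0.082 and 0.054). SF3A2 was lower, log2 -0.15 ± 0.033 (SE, limma adjusted p = 0.0019), and against each guide it passed with sgMETTL1.6 (log2 -0.26) and not with sgMETTL1.3 (log2 -0.03).

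Among the snRNP proteins the small Sm proteins SNRPF and SNRPG and the U2 protein SNRPA1 rose. Sm proteins form the ring that clasps each spliceosomal RNA. SNRPF (plus strand of chromosome 12, 95858928 to 95903828) stood at 142 and 145 TPM in the sgNS libraries, 186 and 180.4 TPM with sgMETTL1.3 and 202 and 197 TPM with sgMETTL1.6, log2 0.41 ± 0.031 (SE, limma adjusted p = 1.5e-07). SNRPG (minus strand of chromosome 2, 70281362 to 70293771) stood at 98.4 and 95.1 TPM in the sgNS libraries, 121 and 117 TPM with sgMETTL1.3 and 135 and 131 TPM with sgMETTL1.6, log2 0.38 ± 0.034 (SE, limma adjusted p = 1.0e-06). SNRPA1, which binds a stem of U2 RNA with SNRPB2, stood at 271 and 268 TPM in the sgNS libraries, 345 and 335 TPM with sgMETTL1.3 and 357 and 344 TPM with sgMETTL1.6, log2 0.36 ± 0.029 (SE, limma adjusted p = 3.2e-07). In all 3 every guide library lay clear of the controls. SNRPD1 (log2 0.17, adjusted p = 9.4e-04), SNRPC of the U1 snRNP (log2 0.17, adjusted p = 2.3e-04), SNRPD2 (log2 0.15, adjusted p = 3.8e-04) and SNRPA of the U1 snRNP (log2 0.11, adjusted p = 0.0097) rose too, SNRPA with a call lost without sgNS replicate 1 (adjusted p = 0.12) and with quantile scaling (adjusted p = 0.083). SNRPB, the most abundant of the family, was listed at 562 and 566 TPM in the sgNS libraries, 569 and 595 TPM with sgMETTL1.3 and 579.6 and 600.1 TPM with sgMETTL1.6. Its guide libraries all exceeded the controls, by little, and it was not called (log2 0.06, adjusted p = 0.1). SNRPB2, SNRPD3 and SNRPE were not called either (log2 0.08, 0.05 and 0.06). So the Sm ring proteins, which occur in equal numbers in the ring, did not all pass the test, and differences between them in size of change were not tested.

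SR proteins moved both ways. SRSF9 stood at 330.4 and 327 TPM in the sgNS libraries, 387 and 406 TPM with sgMETTL1.3 and 422 and 421 TPM with sgMETTL1.6, log2 0.31 ± 0.028 (SE, limma adjusted p = 8.5e-07). SRSF4 stood at 165 and 169 TPM in the sgNS libraries, 210.4 and 210.1 TPM with sgMETTL1.3 and 197 and 199.8 TPM with sgMETTL1.6, log2 0.29 ± 0.029 (SE, limma adjusted p = 2.4e-06). In both every guide library was well above the controls. SRSF2, the most abundant SR gene, stood at 535 and 528 TPM in the sgNS libraries, 585 and 588 TPM with sgMETTL1.3 and 609 and 623 TPM with sgMETTL1.6, log2 0.18 ± 0.025 (SE, limma adjusted p = 4.5e-05). SRSF5 (log2 0.14, adjusted p = 0.001), SRSF8 (log2 0.18, adjusted p = 0.0081) and SRSF3 (log2 0.11, adjusted p = 0.0049) rose as well. The call of SRSF8 was lost without sgNS replicate 1 (adjusted p = 0.068) and that of SRSF3 without sgNS replicate 2 (adjusted p = 0.094). SRSF10, an SR protein that represses splicing when dephosphorylated after heat shock, was lower at 61.1 and 55.6 TPM in the sgNS libraries, 47.1 and 46.9 TPM with sgMETTL1.3 and 56.1 and 52.6 TPM with sgMETTL1.6, log2 -0.20 ± 0.046 (SE, limma adjusted p = 0.002), the sgMETTL1.6 libraries overlapping the controls. SRSF11 was lower at 151 and 143 TPM in the sgNS libraries, 127 and 125 TPM with sgMETTL1.3 and 141 and 136 TPM with sgMETTL1.6, log2 -0.15 ± 0.034 (SE, limma adjusted p = 0.0018). Without sgNS replicate 1 neither passed (adjusted p = 0.066 and 0.054). SRSF1, SRSF6 and SRSF7 were not called (log2 0.03, -0.06 and 0.06).

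The hnRNP genes with the largest rises were HNRNPL, HNRNPAB, HNRNPA2B1 and HNRNPD. HNRNPL (minus strand of chromosome 19, 38836388 to 38852347), which binds CA-rich RNA, stood at 489 and 514 TPM in the sgNS libraries, 677 and 692 TPM with sgMETTL1.3 and 654 and 678 TPM with sgMETTL1.6, log2 0.43 ± 0.029 (SE, limma adjusted p = 5.1e-08). HNRNPAB stood at 375 and 364 TPM in the sgNS libraries, 483 and 485 TPM with sgMETTL1.3 and 471 and 473 TPM with sgMETTL1.6, log2 0.37 ± 0.026 (SE, limma adjusted p = 8.2e-08). HNRNPA2B1 (minus strand of chromosome 7, 26173057 to 26201529), an A/B-type hnRNP, stood at 983 and 994 TPM in the sgNS libraries, 1245 and 1212 TPM with sgMETTL1.3 and 1267 and 1228 TPM with sgMETTL1.6, log2 0.32 ± 0.024 (SE, limma adjusted p = 1.4e-07). In all 3 the lowest guide library exceeded the highest control. HNRNPD, also called AUF1, which binds AU-rich elements and governs mRNA decay, stood at 556 and 571 TPM in the sgNS libraries, 683 and 671 TPM with sgMETTL1.3 and 712 and 685 TPM with sgMETTL1.6, log2 0.29 ± 0.027 (SE, limma adjusted p = 1.1e-06). Smaller rises were found in HNRNPM (log2 0.24, adjusted p = 1.1e-05), HNRNPH1 (log2 0.22, adjusted p = 4.9e-06), HNRNPH3 (log2 0.21, adjusted p = 4.2e-05), HNRNPU (log2 0.18, adjusted p = 4.7e-05), HNRNPA3 (log2 0.14, adjusted p = 7.7e-04), HNRNPDL (log2 0.14, adjusted p = 0.0016), HNRNPK (log2 0.14, adjusted p = 4.0e-04) and HNRNPUL1 (log2 0.07, adjusted p = 0.048). The call of HNRNPUL1 was lost in 9 of the 15 alternatives, among them every left-out library but sgMETTL1.6 replicate 1 (adjusted p up to 0.27).

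HNRNPR (minus strand of chromosome 1, 23303771 to 23344336), an RNA-binding protein close to SYNCRIP, was the hnRNP gene with the deepest fall, at 95.5 and 96.4 TPM in the sgNS libraries, 80.5 and 78.9 TPM with sgMETTL1.3 and 80.4 and 77.4 TPM with sgMETTL1.6, log2 -0.27 ± 0.035 (SE, limma adjusted p = 2.1e-05). All 4 guide libraries lay below both controls. HNRNPF, which binds G-rich RNA as HNRNPH1 does, was lower at 343 and 356 TPM in the sgNS libraries, 323 and 326 TPM with sgMETTL1.3 and 322 and 319 TPM with sgMETTL1.6, log2 -0.12 ± 0.028 (SE, limma adjusted p = 0.0027), while HNRNPH1 was higher. Its call was lost without sgNS replicate 2 (adjusted p = 0.063). HNRNPUL2 was lower too (log2 -0.10, adjusted p = 0.015), a call lost without sgNS replicate 1 or 2 (adjusted p = 0.062 and 0.12) and without the variance trend (adjusted p = 0.052). HNRNPC, which binds uridine tracts, was listed at 459 and 454 TPM in the sgNS libraries, 450.2 and 437 TPM with sgMETTL1.3 and 465 and 459.8 TPM with sgMETTL1.6, with overlapping groups, and HNRNPA0, HNRNPH2 and HNRNPLL were not called either.

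**Figure D2:**
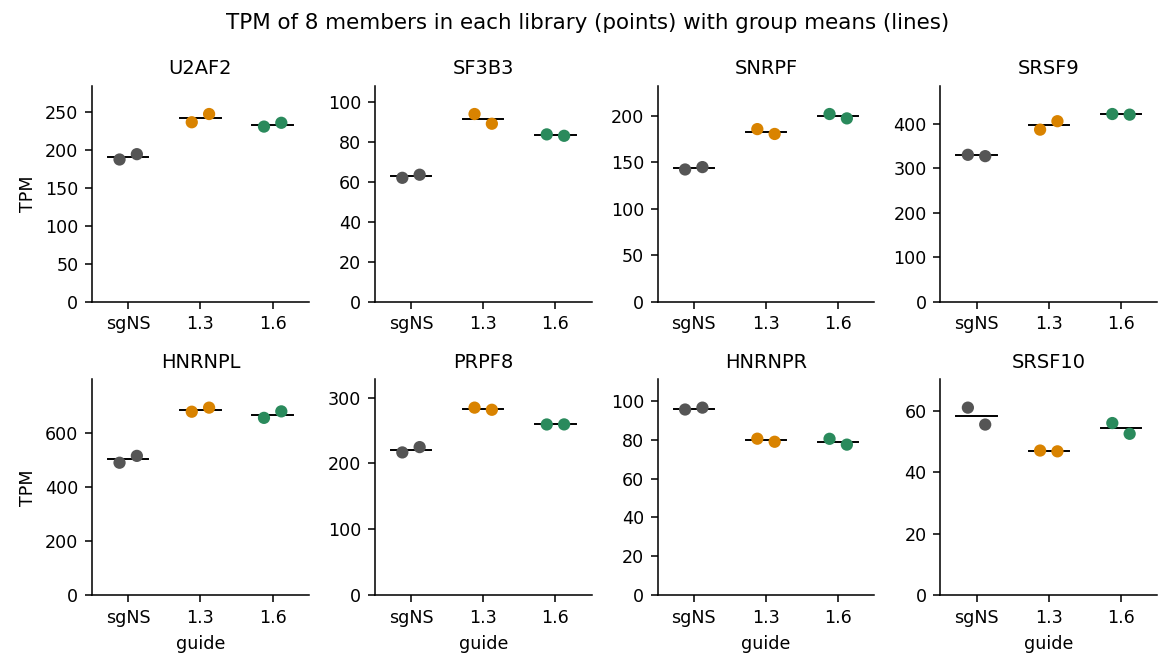
TPM (vertical axes, each from 0) of 8 members in the 2 libraries of sgNS, sgMETTL1.3 (1.3) and sgMETTL1.6 (1.6); points are libraries and lines group means. U2AF2, SF3B3, SNRPF, SRSF9, HNRNPL and PRPF8 lie higher in all 4 guide libraries than in both controls, HNRNPR lies lower, and in SRSF10 the sgMETTL1.6 libraries overlap the controls.

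Tri-snRNP and activation factors of the PRPF family rose in 7 of 12. PRPF8 (minus strand of chromosome 17, 1650629 to 1684882), the large protein at the catalytic centre of the spliceosome, stood at 217 and 225 TPM in the sgNS libraries, 285 and 281 TPM with sgMETTL1.3 and 259 and 259 TPM with sgMETTL1.6, log2 0.29 ± 0.029 (SE, limma adjusted p = 1.8e-06). PRPF4, of the U4/U6 snRNP, stood at 52.5 and 53.5 TPM in the sgNS libraries, 67.9 and 64.5 TPM with sgMETTL1.3 and 62.5 and 60.2 TPM with sgMETTL1.6, log2 0.26 ± 0.039 (SE, limma adjusted p = 8.1e-05). In both the guide libraries did not overlap the controls. PRPF38A (log2 0.24, adjusted p = 4.4e-05), PRPF38B (log2 0.17, adjusted p = 0.0021), the kinase PRPF4B (log2 0.16, adjusted p = 0.0022) and PRPF6 (log2 0.11, adjusted p = 0.0098) rose too, PRPF6 with a call lost without sgNS replicate 1 (adjusted p = 0.094). PRPF40B, the member of the family with the lowest level, went the other way at 2.41 and 2.5 TPM in the sgNS libraries, 1.87 and 1.7 TPM with sgMETTL1.3 and 1.44 and 1.85 TPM with sgMETTL1.6, log2 -0.35 ± 0.096 (SE, limma adjusted p = 0.0066), a call lost without sgNS replicate 2 (adjusted p = 0.056). PRPF3, PRPF18, PRPF19 and PRPF39 were not called. PRPF39 was lower without sgNS replicate 2 (log2 -0.16, adjusted p = 0.040).

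By summed TPM as deposited, families stood apart between the guides. As a percentage of the sgNS mean, the HNRNP sum was 112% to 115% in the 4 guide libraries and the U2AF sum 133% to 135%. The SNRP sum was 110.4% and 110.3% with sgMETTL1.3 and 115.2% and 115.4% with sgMETTL1.6, and the SRSF sum 106% and 106% against 112% and 111%. The other order was seen for PRPF, at 114% and 112% with sgMETTL1.3 and 107% and 107% with sgMETTL1.6, and for SF3A, at 108% and 104% against 94.9% and 97.2%. SF3B stood at 110.2% and 109% with sgMETTL1.3 and 108% and 106% with sgMETTL1.6. Under median-ratio scaling, added for the sums after seeing the data, the PRPF sum was 109.7% and 109.3% with sgMETTL1.3 against 108% and 107% with sgMETTL1.6, and the SF3B sum 106.4% and 107% against 109% and 107%, so that the order of SF3B was lost. Without ribosomal protein genes the PRPF sum was 109.8% and 108% against 106% and 106%. Under median-ratio scaling HNRNP and U2AF separated by guide too. HNRNP stood at 110.4% and 109.9% with sgMETTL1.3 and 115.6% and 114% with sgMETTL1.6, U2AF at 130% and 130% against 135% and 135.7%. Both kept this order without ribosomal protein genes. The median-ratio sums of SNRP (106.6% and 107.8% against 115.7% and 115.9%) and SRSF (102.5% and 103.3% against 112.5% and 111.5%) lay further apart than as deposited. The SF3A gap narrowed. A sum is led by its most abundant genes, and no test was made of sums.

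**Figure D3:**
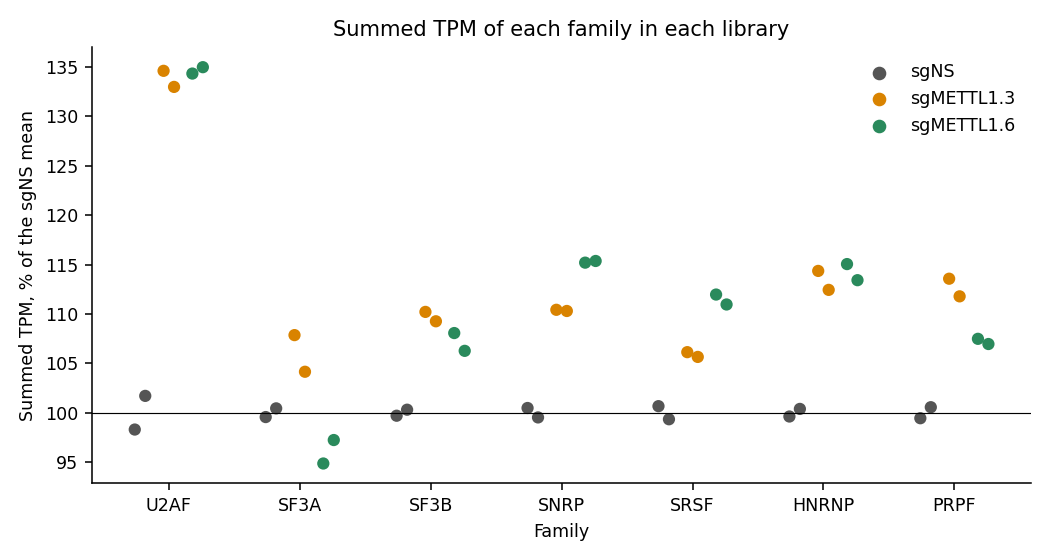
Summed TPM of each family in each of the 6 libraries as a percentage of the sgNS mean (vertical axis, not from 0; the line marks 100%). The U2AF sums lie at 133% to 135% in the guide libraries, SNRP and SRSF are higher with sgMETTL1.6 than with sgMETTL1.3, and PRPF and SF3A are lower.

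The direct comparison of sgMETTL1.6 with sgMETTL1.3 called 15 members, 8 higher and 7 lower with sgMETTL1.6, or 22.4% of the 67, where 23% of all genes were called (7.23% higher and 15.8% lower). The members' share is thus near that of all genes. The 8 higher were 4 snRNP proteins (SNRPE, SNRPG, SNRPD2 and SNRPF) and 4 SR proteins (SRSF10, SRSF3, SRSF1 and SRSF11). The 7 lower were SF3A1, SF3A2, SF3B3, SF3B4, PRPF6, PRPF8 and PRPF19, and no hnRNP or U2AF gene was called. This sorting by family did not hold in every alternative: HNRNPC, HNRNPDL and HNRNPH1 were called higher with median-ratio scaling (adjusted p = 0.028, 0.040 and 0.018), and HNRNPC and HNRNPH1 also without ribosomal protein genes (adjusted p = 0.049 and 0.029). U2AF1 was called higher without sgNS replicate 1 or 2 (adjusted p = 0.020 each), and SF3B6 higher in 4 alternatives. With the replicate block, U2AF1 and HNRNPH1 were called higher and HNRNPLL and the SR gene SRSF4 lower (adjusted p = 0.025, 0.035, 0.048 and 0.030). The split depended on scaling: median-ratio scaling gave 16 members higher and 2 lower, leaving out ribosomal protein genes 14 and 3, and quantile scaling 9 and 3. Over all genes the higher share of the calls was 31.4% as deposited and 58.9%, 49.1% and 54.8% under these scalings. Monocytic markers differed between the guides too, led by S100A9, listed at 3867 and 3694 TPM with sgNS, 6107 and 6419 TPM with sgMETTL1.3 and 4429.6 and 4441 TPM with sgMETTL1.6, with 4 of 9 lower and 1 higher with sgMETTL1.6 than with sgMETTL1.3. PECAM1 was the only gene of the other-cell list to reach 1 TPM in every library, and by itself it does not show other cells. It stood at 70.7 and 73.8 TPM with sgNS, 100.05 and 98.5 TPM with sgMETTL1.3 and 71.0 and 68.6 TPM with sgMETTL1.6. The other 9 genes of that list stayed near or at 0. The part of these markers in the guides' difference was not tested.

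SF3B4, which contacts the pre-mRNA near the branch point, stood at 166 and 168 TPM in the sgNS libraries, 202 and 202 TPM with sgMETTL1.3 and 171 and 175 TPM with sgMETTL1.6, and the sgMETTL1.6 libraries lay between the controls and those of sgMETTL1.3, log2 difference -0.23 ± 0.034 (SE, limma adjusted p = 7.5e-04). SF3A2 stood at 153 and 150.0 TPM in the sgNS libraries, 151 and 145 TPM with sgMETTL1.3 and 124 and 129 TPM with sgMETTL1.6, log2 difference -0.22 ± 0.038 (SE, limma adjusted p = 0.0017). With sgMETTL1.3 its libraries reached into the range of the controls, and with sgMETTL1.6 both were below it. SRSF3, one of the smallest SR proteins, stood at 337 and 324 TPM in the sgNS libraries, 332 and 338 TPM with sgMETTL1.3 and 383 and 375 TPM with sgMETTL1.6, log2 difference 0.18 ± 0.033 (SE, limma adjusted p = 0.0028), and only its sgMETTL1.6 libraries lay clear of the controls. These 3 were the members whose call between the guides was kept in each of the 15 alternatives. The other 12 lost it in 1 (SNRPE) to 11 (SF3B3) of them. Without sgMETTL1.3 replicate 1, sgMETTL1.3 replicate 2 or sgMETTL1.6 replicate 1, the members called numbered 4, 2 and 3 higher and 2 lower each time. SNRPE, an Sm protein, stood at 76.8 and 70.3 TPM in the sgNS libraries, 71.3 and 70.4 TPM with sgMETTL1.3 and 86.5 and 80.7 TPM with sgMETTL1.6, log2 difference 0.24 ± 0.050 (SE, limma adjusted p = 0.0064), a call lost when low genes were kept in (adjusted p = 0.063). SRSF10 was higher with sgMETTL1.6 than with sgMETTL1.3, log2 difference 0.20 ± 0.053 (SE, limma adjusted p = 0.016), and SF3A1 lower, log2 difference -0.16 ± 0.042 (SE, limma adjusted p = 0.016). Both lost the call without sgMETTL1.3 replicate 1, sgMETTL1.3 replicate 2 or sgMETTL1.6 replicate 1 (SRSF10 adjusted p = 0.066, 0.074 and 0.096, SF3A1 0.063, 0.090 and 0.074).

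**Figure D4:**
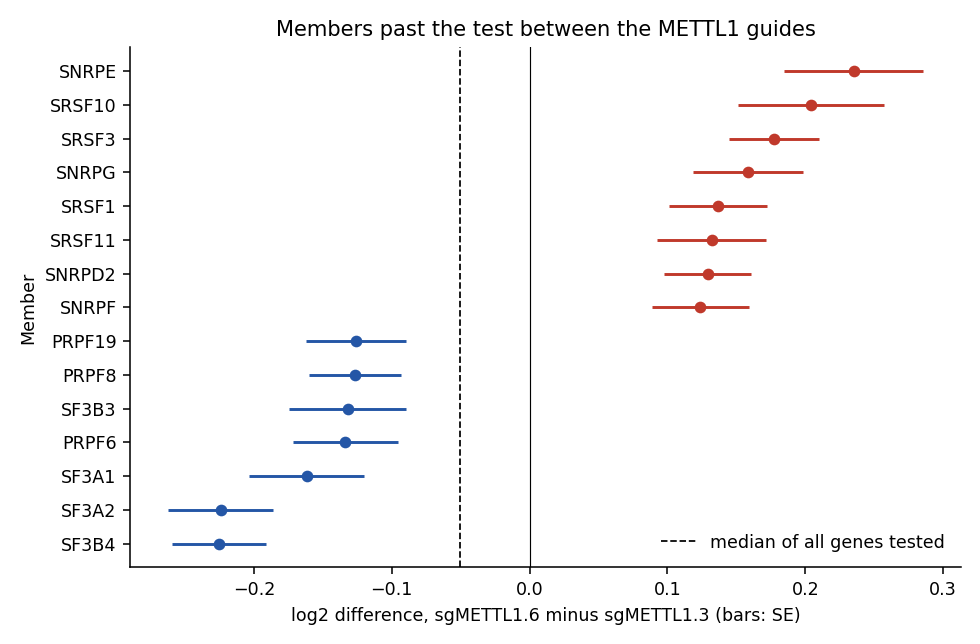
The 15 members past the test between the guides, with the log2 difference sgMETTL1.6 minus sgMETTL1.3 on the horizontal axis (points, with SE as bars); the dashed line is the median of all genes tested (-0.05). With TPM as deposited, the 8 members higher with sgMETTL1.6 are SNRP and SRSF genes and the 7 lower are SF3A, SF3B and PRPF genes.

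Other splicing genes, in lists drawn up with earlier results of these data known, gave the setting of these families. Their shares are to be read against the 32.6% higher and 26.8% lower of all genes tested. Of 30 tested snRNP and spliceosome proteins with other names 19 were higher and 1 lower (63.3% and 3.33%, median log2 0.18), led by SNRNP25 of the minor spliceosome (85.1 and 89.3 TPM in the sgNS libraries, 150.4 and 152 TPM with sgMETTL1.3 and 142 and 145 TPM with sgMETTL1.6, log2 0.75, adjusted p = 8.5e-10) and the tri-snRNP cyclophilin PPIH (log2 0.51, adjusted p = 2.4e-08), with RNPC3 lower (log2 -0.22, adjusted p = 0.0012). Of 9 LSm ring proteins 7 were higher and 1 lower (77.8% and 11.1%, median 0.17): LSM7 (log2 0.40, adjusted p = 4.7e-05) and LSM1 (log2 0.28, adjusted p = 2.5e-05) rose and LSM8, which completes the nuclear ring, fell (18.3 and 18 TPM in the sgNS libraries, 11.2 and 10.5 TPM with sgMETTL1.3 and 10.8 and 10.01 TPM with sgMETTL1.6, log2 -0.72, adjusted p = 2.4e-07). Of 17 snRNP assembly genes 11 were higher and 2 lower (64.7% and 11.8%, median 0.23), with GEMIN5, which recognises snRNAs (log2 0.65, adjusted p = 5.8e-08), and WDR77, the partner of PRMT5 (log2 0.65, adjusted p = 2.9e-08), highest and CLNS1A lower (log2 -0.15, adjusted p = 4.4e-04). The other member called lower belongs to a near-identical gene pair between which TPM moved from library to library, and the sum of that pair was higher with the guides (log2 0.23, limma adjusted p = 2.1e-05).

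Other lists had shares of higher calls nearer to or under that of all genes. Of 23 genes of the PRP19-associated complexes and catalytic steps 8 were higher and 8 lower (34.8% each, median log2 0.01), near the shares of all genes. PPIE (log2 0.40, adjusted p = 1.9e-06) and CACTIN (log2 0.35, adjusted p = 2.7e-04) rose, and SYF2 (61.4 and 61.2 TPM in the sgNS libraries, 40.4 and 38.1 TPM with sgMETTL1.3 and 38.8 and 40.6 TPM with sgMETTL1.6, log2 -0.62, adjusted p = 5.4e-08) and PLRG1 (72 and 70.6 TPM in the sgNS libraries, 48.5 and 46.6 TPM with sgMETTL1.3 and 45 and 45.2 TPM with sgMETTL1.6, log2 -0.61, adjusted p = 2.6e-08) fell, with every guide library under the controls in both. Of 22 exon junction and export genes 9 were higher and 4 lower (40.9% and 18.2%, median 0.06), RNPS1 (log2 0.39, adjusted p = 2.3e-07) and the export adaptor ALYREF (log2 0.38, adjusted p = 1.4e-07) rising and THOC5 (log2 -0.40, adjusted p = 2.8e-06) and MAGOHB (log2 -0.32, adjusted p = 5.5e-04) falling. Of 16 genes for SR protein kinases, phosphatases and import 4 were higher and 5 lower (25% and 31.2%), near the shares of all genes. SRPK1, which phosphorylates SR proteins in the cytoplasm, rose (139 and 139.9 TPM in the sgNS libraries, 194 and 189.9 TPM with sgMETTL1.3 and 191 and 184 TPM with sgMETTL1.6, log2 0.44, adjusted p = 8.5e-08), PPP1CA rose (log2 0.17, adjusted p = 1.8e-04), and SRPK3 (log2 -0.78, adjusted p = 1.4e-06) and PPP1CB (log2 -0.35, adjusted p = 9.2e-06) fell. Of 41 other alternative splicing regulators 8 were higher and 19 lower (19.5% and 46.3%, median log2 -0.07): TARDBP (log2 0.32, adjusted p = 1.6e-06) and ELAVL1 (log2 0.30, adjusted p = 9.7e-06) rose and MBNL2 (log2 -0.53, adjusted p = 4.8e-05) and PTBP3 (log2 -0.35, adjusted p = 6.9e-06) fell.

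Promoters were looked at because many members moved together. Sequences for 64 of the 73 members were found in RefSeq (GRCh38.p14), and HNRNPCL3, PRPF3, PRPF39, PRPF4B, SF3B3, SNRPD1, SRSF2 and U2AF1L5 were among those with no entry. Of 6 motifs searched, the ETS motif CCGGAAG, looked for on both strands in the 250 bases before the start, was present in 21 of the 64 (32.8%), against 17.3% of 8564 genes tested and 8.82% of all 27305 promoters. It was in 13 of 35 members called higher (37.1%), 2 of 8 called lower (25%) and 6 of 16 not called (37.5%). These groups are small, and a part of the motif in the changes was not tested. The E-box CACGTG was in 7 of the 64 (10.9%) and 9.42% of genes tested, and the CCAAT box in 27 (42.2%) and 35.8%. The cAMP response element TGACGTCA was in 0 of the 64 and 3% of genes tested, the ATF4 composite element TGATGNAAN in 1 (1.56%) and 1.31%, and the heat shock element in 1 (1.56%) and 0.315%. A match is a run of letters and not a shown binding site. The 100 bases before the start are shown for 2 members called higher, 5′ to 3′ on the gene's strand with the ETS letters, here on the opposite strand as CTTCCGG, in capitals. The SNRPG window is chr2:70293459-70293558 on the minus strand, within the span of the GENCODE gene, and the PRPF6 window is chr20:63981032-63981131 on the plus strand.
SNRPG: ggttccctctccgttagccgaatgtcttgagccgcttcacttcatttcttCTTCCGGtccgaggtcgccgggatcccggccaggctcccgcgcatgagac
PRPF6: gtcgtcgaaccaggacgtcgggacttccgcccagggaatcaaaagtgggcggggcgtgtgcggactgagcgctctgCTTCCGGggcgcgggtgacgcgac
The motif ends 43 bases before the SNRPG start and 17 before the PRPF6 start. SNRPG was called higher with each guide and PRPF6 with sgMETTL1.3 only.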

How the data were processed

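A stranded mRNA kit was used on total RNA, per the labels' protocols, and the authors deposited TPM for 18806 gene symbols in 6 libraries. RSEM 1.2.31 and the GRCh38 build are named, per the submitters' processing notes. Aligner, annotation and strand setting are not given in the sources here. RSEM divides reads among transcripts of like sequence by estimation. Each of the 6 value columns matched 1 sample by its name. The members and lists were chosen with earlier results of these data known.

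The model was fitted with limma 3.58.1 (R 4.3.3) to log2(TPM + 1) of 10911 genes whose mean reached 1 TPM. The 3 groups entered 1 model with a variance trend (3 residual and 9.84 prior degrees of freedom), and Benjamini-Hochberg adjustment ran over all genes tested. Log2 changes carry this pseudocount and understate the change of low genes. Outlying libraries cannot be tested for at 2 per group. On simulated data for both guides against sgNS with 10911 genes, 79.1% of 67 genes changed 1.2-fold, all 67 changed 1.5-fold and all 66 changed 2-fold were recovered, and 14 of 10711 unchanged genes were called. The deposited data had 6484 of 10911 genes called, and these rates were not tested with that many genes changed. Alternatives were pseudocounts of 0.1 and 5, no filter or one at 5 TPM, quantile scaling, median-ratio scaling, TPM recomputed after removing 80 ribosomal protein genes, no variance trend, the replicate number as a block and each library left out. Named in each family were up to 4 largest called changes per direction, the most abundant member, up to 3 per direction between the guides and, in each other list, 2 per direction; some genes that this rule would name are not reported here. Positions are from GENCODE 29 (GRCh38), whose transcripts were also compared in 50-base stretches; all 73 members had an entry.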

Additional observations from a re-analysis of the deposited data

How the results depend on the processing

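Of the 49 members called over both guides, 36 kept their call and direction in each of the 15 alternatives, 34 of the 41 higher and 2 of the 8 lower (HNRNPR and SF3A2). The number called lower was 5 without sgNS replicate 1 and 5 without sgNS replicate 2, and ran from 5 to 8 over the left-out libraries. With sgMETTL1.3 alone it went from 6 to 11 without ribosomal protein genes, while over all genes it went from 2642 to 3122. With sgMETTL1.6 alone the members called lower, 6 in the main fit, ran from 5 (no filter on low values) to 9 (replicate block) over the alternatives that kept every library.

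Between the guides, 2510 genes were called, 1023 with no filter on low values, 1409 without the variance trend and 1214 to 2469 over the left-out libraries. The 8 members higher became 1 with no filter, 16 with median-ratio scaling, 14 without ribosomal protein genes, 2 without the trend, 14 with the replicate block and 2 to 9 over the left-out libraries. The 7 members lower became 4, 2, 3 and 2 in the first 4 of these settings, 3 with quantile scaling and 2 to 6 over the left-out libraries. With the replicate block the members called lower numbered 10. The cause of these shifts was not tested.

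The HNRNP median of 0.14 became 0.11 with quantile scaling, 0.12 with median-ratio scaling, 0.11 without ribosomal protein genes and 0.12 to 0.14 over the left-out libraries. The SNRP median of 0.15 became 0.12 without ribosomal protein genes and 0.13 to 0.16 over the left-out libraries. The PRPF median of 0.14 became 0.16 at a mean of 5 TPM, 0.11 with quantile scaling and 0.11 without ribosomal protein genes.

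Replicate numbers are shared only as numbers: replicate deviations correlated at -0.01, 0.21 and 0.15 between the groups. With the replicate block 6976 genes were called over both guides in place of 6484, and the members SNRPB, SNRPB2 and SRSF6 passed as well. With unknown depth, no limit from counting can be given.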
